A study of Mus musculus with 12 samples.

Results

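Mitochondrial ribosomal proteins are encoded in the nucleus, made on cytosolic ribosomes and imported into mitochondria. There they assemble with mitochondrial rRNA into the mitoribosome, which translates the few messages of the mitochondrial genome, all for subunits of the respiratory chain and the ATP synthase. The mitoribosome has a large subunit, which joins amino acids and holds the peptide exit tunnel, and a small subunit, which reads the codons. Many of its proteins have relatives in bacterial ribosomes, and the others are particular to mitochondria.

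The genes described here are the mouse genes whose symbols start with *Mrpl* or *Mrps* and a number and that are listed in both normalized count tables. Of 10080 genes listed in both tables, 76 qualified: 49 encode proteins of the large subunit, 26 encode proteins of the small subunit, and 1 (*Mrps36*) encodes a protein now counted to the 2-oxoglutarate dehydrogenase complex. *Mrps18a* and *Mrps30* were counted to the large subunit despite their names. Of the large subunit members 28 have bacterial relatives and 21 are mitochondrial, against 15 and 11 in the small subunit. 1 further protein-coding gene, *Mrpl33*, was listed only in the mRNA table, at 672 to 1211 normalized counts, together with 4 pseudogenes, and these were not used.

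The measurements come from Ba/F3 cells, a mouse lymphoid line that grows with interleukin-3, transduced with human RPL10, a protein of the cytosolic large ribosomal subunit, either as wild type (WT) or with the R98S change found in T-cell acute lymphoblastic leukemia. In both groups the cells' own *Rpl10* was knocked down with an shRNA, and every line was 1 monoclonal clone: R98S clones 11, 13 and 35 and WT clones 28, 29 and 36. Each of the 6 clones gave 1 library of ribosome-protected fragments (RPF; footprints of 30 to 33 nucleotides) and 1 matched mRNA library, both after cycloheximide at 100 µg/ml for 5 min. Translation efficiency (TE) is RPF divided by mRNA of the same clone.

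Library depth ran from 6617457 (WT clone 28) to 23136595 counted reads in mRNA and from 3477723 (R98S clone 35) to 10883086 in RPF. Of 12 markers listed for Ba/F3, 6 were at 10 or more normalized counts in every mRNA library, among them the interleukin-3 receptor genes *Il3ra*, *Csf2rb* and *Csf2rb2* and the B-cell receptor genes *Cd79a* and *Cd79b*. The B-lineage markers *Pax5*, *Ebf1*, *Vpreb1* and *Igll1*, and *Kit*, were at 0 to 2.69. Summed T-cell markers reached 2.46 to 18.8 normalized counts and summed fibroblast markers 0 to 10.3. Of the macrophage markers *Cd68* was present at 99.2 to 158, and *Csf1r* was at 0 to 3.30. Summed erythroid markers ran from 12.9 to 30.2 in R98S clones and from 33.0 to 169 in WT clones, and their part in the results below was not tested. The mRNA counted to the knocked-down mouse *Rpl10*, in normalized counts, was 2905, 1449 and 2355 for R98S clones 11, 13 and 35, and 4501, 2345 and 2230 for WT clones 28, 29 and 36. The groups overlapped (log2 difference -0.42, adjusted p = 0.551, limma), and without untransduced cells the knockdown itself could not be measured in these libraries. The study itself selected its clones for knockdown by qPCR. Whether reads of the introduced human RPL10 were counted to the mouse gene is not given in the sources used here.

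The members are short genes. Their coding sequences had a median of 582 bases (261 to 1326), against 1386 bases over all genes of both tables, and 51.3% of members were under 600 bases against 13.2% of all genes. They are spread over 17 of the chromosomes, with 10 on chromosome 11, 8 on chromosome 17, 7 on chromosome 6 and none on chromosomes 12, 18 or X. A head-to-head neighbour, whose start lies within 1000 bases on the opposite strand, was found for 18 of 76 members (23.7%), against 1166 of 9732 protein-coding genes of both tables (12%).

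Promoter letters are shown because these genes, scattered over the genome, encode parts of a single machine. RefSeq promoters (GRCm38.p6, 250 bases before to 50 after the start) matched 67 of the 76 members and 7820 genes of both tables. Searched on both strands, CCGGAAG, a core of sites for ETS factors such as GABP, was found in 22 of 67 member promoters (32.8%) and in 21% of all these promoters. GCGCA and GCGC separated by any 1 base, the core of sites for nuclear respiratory factor 1 (NRF1), were found in 13 (19.4%) against 12%. AAGATGGC, letters of YY1 sites, was found in 12 (17.9%) against 5.38%. In 8 of these 12 the match began 11 to 36 bases after the start, with its ATG in the sense direction. Such letters just after the start are also known as part of TISU, a translation initiator element of genes with very short leaders. No factor binding was measured here, and a match describes letters, not a used site. The 7 members below show the YY1 letters in capitals with 8 bases on either side, each read 5′ to 3′ on the strand of its gene.
Mrpl35, chr6:71823746-71823769, minus strand: caggctgcAAGATGGCggcttcca
Mrpl37, chr4:107066825-107066848, minus strand: cacgggcaAAGATGGCggcgtcca
Mrpl42, chr10:95501907-95501930, minus strand: attgaagcAAGATGGCgagcgcgc
Mrpl49, chr19:6057724-6057747, minus strand: gaggcgccAAGATGGCagcagcgg
Mrps7, chr11:115604150-115604173, plus strand: cagcggccAAGATGGCtgcccccg
Mrps18a, chr17:46111007-46111030, plus strand: tgcgttccAAGATGGCggccctca
Mrps27, chr13:99344792-99344815, plus strand: tgcgctccAAGATGGCggctccca

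The TE differences between R98S and WT of the 8 members with these letters after the start, a group formed after their values were seen, ran from -0.22 to 0.53 on the log2 scale with 6 of 8 above 0, a share like that of all members (76%). The NRF1 letters are shown for *Mrpl12* and *Mrpl57*, the members with the largest TE differences, and for *Mrpl32*, the member called lower in RPF, all picked after their values were seen. Of the other members called in RPF, *Mrpl46* and *Mrps7* had no NRF1 match. *Mrps24* and *Mrpl10*, also among the members with the largest TE differences, had no NRF1 match. *Mrpl38* and *Mrpl54* had no RefSeq promoter and were not searched.
Mrpl12, chr11:120484548-120484573, plus strand: ttgtctccGCGCCTGCGCgtcgcacc
Mrpl57, chr14:57826174-57826199, plus strand: tgaatcctGCGCAGGCGCagaaggcg
Mrpl32, chr13:14613107-14613132, minus strand: tgacccttGCGCATGCGCaagagggg

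Levels are given per length, as normalized counts per kb, of counted coding sequence for RPF and of merged exons for mRNA. In the WT clones the members' RPF level had a median of 649 per kb (quartiles 381 and 1012), against 163 over all genes of both tables and 4403 over the 83 cytosolic ribosomal protein genes. Members thus sat at a median rank of 81.4% among all genes by RPF and of 68.6% by mRNA. By TE per length their median rank was 77.5%, while that of the cytosolic ribosomal proteins, whose messages begin with a tract of pyrimidines, was 26.3%. With the length of the principal transcript in place of merged exons these TE ranks were 79.7% and 13.5%.

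Mitoribosome proteins are mostly present in single copies, but footprints per length spanned 16.3-fold among the large subunit members and 14.5-fold among the small subunit members. *Mrpl52* of the large subunit was highest, at 3004 ± 757 RPF per kb (SD, n = 3 WT clones). It was followed by *Mrps21* at 1823 ± 391, *Mrpl53* at 1783 ± 295, *Mrpl43* at 1781 ± 233 and *Mrps14* at 1733 ± 283. These 4 neighbours in the order lay within each other's SD. *Mrps36*, the gene no longer counted as a ribosomal protein, was the lowest in WT at 118 ± 26.3. In the R98S clones *Mrps31* (143) and *Mrps27* (149) were below *Mrps36* (172). Next in WT came *Mrps5* (126 ± 13.5), *Mrps27* (151 ± 24.0), *Mrps31* (162 ± 45.8) and *Mrpl37* (185 ± 69.3). *Mrps36* and *Mrps5* differed by less than either SD. *Mrps27*, *Mrps31* and *Mrpl37* differed from each other by less than the larger SD of each pair, while *Mrps5* and *Mrps27* differed by more than either SD. *Mrpl12*, whose protein is the one known to sit in several copies on the stalk of the large subunit, ranked 17 of 76 by RPF at 1118 ± 197 per kb. Across the members mRNA per kb and RPF per kb were only loosely related (Spearman rho 0.49, Pearson r 0.36 on log2 values, n = 76 genes of the same libraries).

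**Figure D1:**
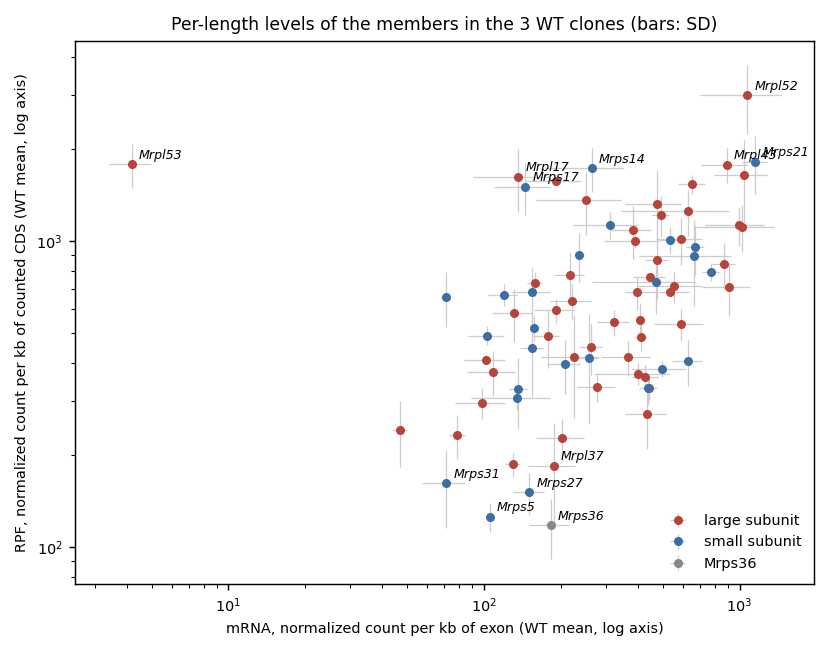
RPF level (normalized counts per kb of counted coding sequence, log axis) against mRNA level (normalized counts per kb of exon, log axis) of the 76 members in the WT clones, as the mean of 3 clones with SD bars. Large subunit members are red, small subunit members blue and *Mrps36* grey; *Mrpl53* stands alone at the left with 4.18 mRNA counts per kb beside 1783 RPF counts per kb.

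*Mrpl53* was the exception in that comparison. Its mRNA measured 1.59 to 4.10 normalized counts per clone while its RPF measured 431 to 688, so its TE was not tested. In the annotation 695 of the 790 exon bases of *Mrpl53* are shared with *Gm42688* on the same strand. How the reads of such shared exons were assigned is not given in the sources used here. Exons of 7 members overlap another gene on the same strand (*Mrpl3*, *Mrpl51*, *Mrpl53*, *Mrps6*, *Mrps18c*, *Mrps24* and *Mrps34*) and those of 27 members overlap one on the opposite strand, 31 members in all, and the mRNA and TE values of these are uncertain to that extent.

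The question of the comparison between R98S and WT is whether the leukemia-associated change in a cytosolic ribosomal protein went along with a different supply of mitoribosome proteins. Footprints on these genes were higher in R98S clones by a median of 1.15-fold, with 56 of 76 members above 0 (73.7%, against 51.2% of all tested genes). The median log2 difference was 0.09 in mRNA, 0.20 in RPF and 0.13 in TE. Few single genes passed the test: 4 members rose and 1 fell in RPF, and none was called in mRNA or TE. The calls are limma tests with Benjamini-Hochberg adjustment over all tested genes at a threshold of 0.1, and all differences are R98S minus WT on a log2(value + 1) scale.

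Summed over the 76 members, RPF in normalized counts came to 33396, 36259 and 31053 for R98S clones 11, 13 and 35, and to 30351, 25311 and 30503 for WT clones 28, 29 and 36. Every R98S clone was above every WT clone, by 1.17-fold on average, although R98S clone 35 exceeded the nearest WT clone by little. The exact permutation test (two-sided) gave p = 0.1, the smallest value that 3 against 3 clones allow. Scaled to the total reads of each library instead, which moved the RPF difference of every gene by 0.11, the fold was 1.26. Summed over the same members, mRNA was 64902, 61781 and 65167 for R98S clones 11, 13 and 35, and 70913, 53323 and 58751 for the WT clones. Here WT clone 28 was the highest of the 6 clones and WT clone 29 the lowest, so the groups overlapped (1.06-fold, exact permutation p = 0.6), and without WT clone 29 the log2 difference was -0.01. The ratio of large to small subunit footprints was 2.38 in R98S and 2.36 in WT (exact permutation p = 0.8). Cytosolic ribosomal proteins summed to 1.05-fold in RPF with overlapping groups (exact permutation p = 0.9). In bulk libraries fewer cells with a transcript and less transcript per cell cannot be told apart, and the scaling makes each value relative to the other genes.

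**Figure D2:**
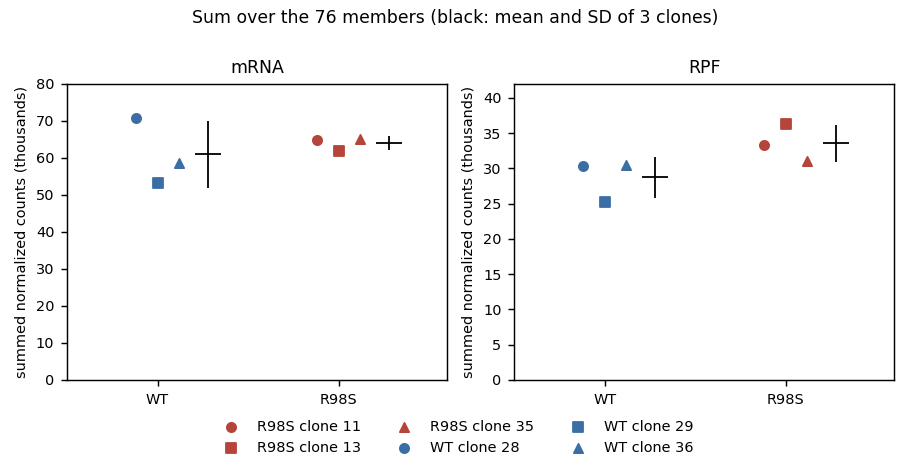
Normalized counts summed over the 76 members in each clone (axis in units of 1000; left mRNA, right RPF), with the mean and SD of 3 clones in black. The 3 R98S clones (31053 to 36259) lie above the 3 WT clones (25311 to 30503) in RPF, while in mRNA the WT clones run from 53323 to 70913 and enclose the R98S clones.

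The members as a body also differed between clones of a group. Their median log2 difference from the mean of the 6 clones was 0.12, 0.23 and 0.00 in RPF of R98S clones 11, 13 and 35 and -0.02, -0.27 and -0.04 in WT clones 28, 29 and 36. R98S clone 13 and WT clone 29 were the extremes, and the other 4 clones lay between them. In mRNA, WT clone 29 was again low at -0.23, with only 8 of 75 members above the mean of the clones, while WT clone 28 was the highest at 0.18, with 59 of 75 above it. In TE the order was different: R98S clone 13 was highest at 0.20, WT clone 28 lowest at -0.20 and R98S clone 35 was at -0.08, below WT clone 36 at 0.08. The mRNA deviation of WT clone 28 from the other WT clones also moved with coding length, shorter genes being higher (Spearman rho -0.42 over 75 members and -0.31 over 10394 genes). That of WT clone 36 went the opposite way (0.49 and 0.24). For R98S clones 13 and 35, set against the other R98S clones, rho over the members was 0.27 and -0.26. The part of these length trends in the members' TE was not tested. Without WT clone 28 the median of the members was 0.20 in mRNA and 0.05 in TE. Without WT clone 29 it was 0.01 in mRNA and 0.16 in both RPF and TE.

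**Figure D3:**
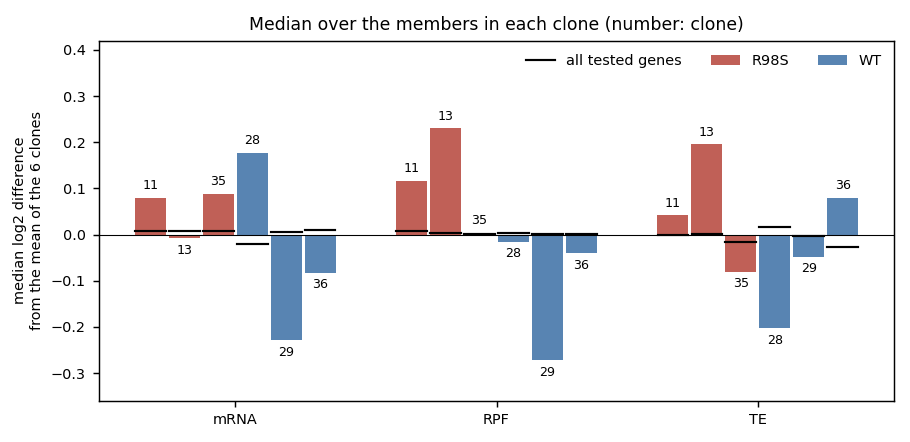
Median over the members of the log2 difference from the mean of the 6 clones, for mRNA, RPF and TE in each clone (red R98S, blue WT, number of the clone at each bar); black lines give the same median over all tested genes, which lies near 0. RPF is highest in R98S clone 13 (0.23) and lowest in WT clone 29 (-0.27).

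In RPF 4 of 76 members were called higher, where 3.13% of all 9580 tested genes were, and 1 was called lower, where 4.62% were; in both directions together 7.76% of genes were called. At an unadjusted p under 0.05 there were 15 members (19.7%), against 20.3% of genes. Calls among the members were therefore about as frequent as among genes at large. The direction of the differences was less even: all 3 R98S clones exceeded all 3 WT clones for 21 of 76 members (27.6%), against 12.5% of tested genes. The members' median log2 difference was 0.20, against 0.01 over all tested genes.

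**Figure D4:**
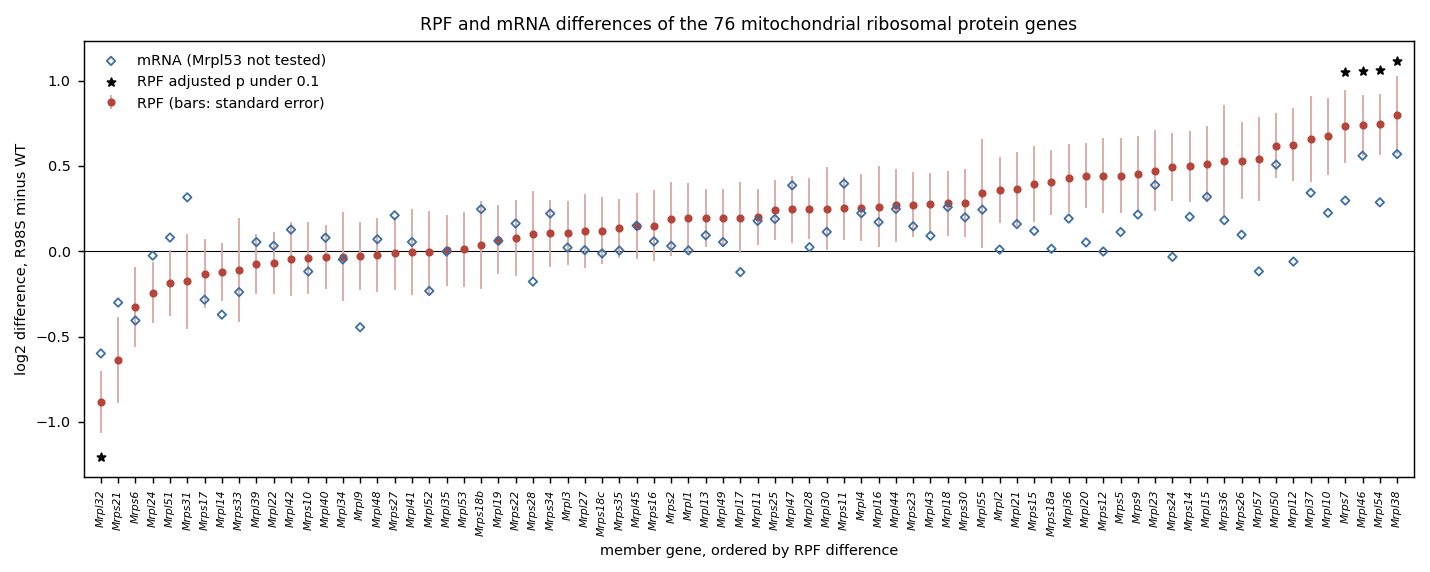
Log2 difference R98S minus WT of each member, ordered by RPF (red points with standard error bars) with mRNA as open blue diamonds and stars at adjusted p under 0.1. RPF differences run from -0.89 (*Mrpl32*) to 0.80 (*Mrpl38*) with a median of 0.20, and most mRNA diamonds lie closer to 0.

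*Mrpl54* lies at the base of the stalk, the arm of the large subunit that recruits the translation factors. Its RPF was 633, 667 and 655 in R98S clones 11, 13 and 35 and 344, 375 and 455 in WT clones 28, 29 and 36. The groups were far apart, at 1.68-fold (log2 0.74, SE 0.178, adjusted p = 0.0452, limma). Its mRNA overlapped between groups, at 1092, 800 and 1074 against 1063, 671 and 723 (log2 0.29, adjusted p = 0.564). *Apba3*, which starts 26 bases away on the other strand of chromosome 10, was at 0.30 in mRNA, close to *Mrpl54*, and at -0.01 in RPF.

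*Mrpl46* and *Mrpl38* both belong to the central protuberance, the top of the large subunit where it meets the small one. *Mrpl46* RPF was 567, 676 and 680 in R98S and 427, 351 and 374 in WT (log2 0.74, SE 0.178, adjusted p = 0.0463, limma). Its mRNA was also higher in every R98S clone, at 818, 798 and 959 against 588, 550 and 602, but did not pass the test (log2 0.56, adjusted p = 0.122). *Mrps11*, a small subunit gene on the opposite strand that shares 173 exon bases with the 5′ end of *Mrpl46*, was at 0.40 in mRNA and 0.25 in RPF, with adjusted p = 0.308 and 0.479. *Mrpl46* is also named in the study's supplement, partly from these samples, so it is not independent evidence.

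*Mrpl38* RPF was 385, 573 and 344 in R98S and 289, 219 and 228 in WT (log2 0.80, SE 0.230, adjusted p = 0.0836, limma). R98S clone 13 stood highest, and the groups did not overlap. Its mRNA was 749, 853 and 676 against 642, 437 and 469 (log2 0.57, adjusted p = 0.184, limma).

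*Mrps7*, which binds rRNA in the head of the small subunit, was the only small subunit gene called. Its RPF was 396, 561 and 344 in R98S and 268, 237 and 260 in WT (log2 0.73, SE 0.214, adjusted p = 0.0859, limma). As for *Mrpl38*, R98S clone 13 was the highest. Its mRNA overlapped, at 1151, 1324 and 1269 against 1308, 834 and 955.

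Both *Mrpl38* and *Mrps7* lie on chromosome 11, where all genes together were shifted in 1 clone: the median RPF deviation of the 809 chromosome 11 genes was 0.28 in R98S clone 13 and -0.09 to -0.01 in the other clones. With the median of each chromosome removed in each library the difference of *Mrpl38* was 0.65 (adjusted p = 0.106), that of *Mrps7* 0.59 (adjusted p = 0.112) and that of *Mrpl46*, on chromosome 7, 0.56 (adjusted p = 0.101), so that 2 members, *Mrpl54* and *Mrpl32*, were still called. The 10 chromosome 11 members had an RPF median of 0.42 and the other 66 a median of 0.20. Leaving out 1 clone at a time, the number of members called was 2 without R98S clone 11, 0 without R98S clone 13, 10 without R98S clone 35, 2 without WT clone 28, 3 without WT clone 29 and 3 without WT clone 36. Without R98S clone 13 the adjusted p (limma) was 0.110 for *Mrpl32*, 0.176 for *Mrpl54*, 0.187 for *Mrpl46*, 0.303 for *Mrpl38* and 0.313 for *Mrps7*, while *Mrpl32* passed the threshold with any other single clone left out.

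*Mrpl32* was the single member called lower in RPF, among 20 members with a difference below 0. It is named, like *Mrpl50* below, in the study's supplement, partly from these samples, so neither is independent evidence. The protein is known as a substrate that the mitochondrial m-AAA protease must cut before it joins the large subunit. Its RPF was 192, 189 and 208 in R98S and 399, 332 and 362 in WT (log2 -0.89, SE 0.183, adjusted p = 0.0258, limma). Every R98S clone was below every WT clone by a wide margin. Its mRNA was 432, 518 and 623 against 738, 780 and 842, below WT in every R98S clone but short of the test (log2 -0.60, adjusted p = 0.141, limma).

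The gene that shares its promoter region went the same way. *Psma2*, a subunit of the proteasome core, starts 75 bases from *Mrpl32* on the opposite strand. Its mRNA was 2133, 1968 and 2433 in R98S and 3531, 2891 and 3351 in WT (log2 -0.58, adjusted p = 0.0955, limma). Its RPF was 1459, 1193 and 1474 against 2301, 2254 and 2516 (log2 -0.78, adjusted p = 0.0311). *Psma2* thus fell in both measures, and *Mrpl32* in RPF. The stretch between both GENCODE starts, shown because nothing else separates them, holds none of the 3 sets of letters searched. The promoter search used the RefSeq start of *Mrpl32*, 128 bases farther from *Psma2*. The NRF1 letters of *Mrpl32* shown above lie 87 bases before that RefSeq start, between it and *Psma2*.
Mrpl32 to Psma2, chr13:14613166-14613239, minus strand: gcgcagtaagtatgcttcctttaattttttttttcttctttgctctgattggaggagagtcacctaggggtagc

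*Mrpl50*, a mitochondrial protein of the large subunit, had the smallest adjusted p of the members in mRNA. Its mRNA was 1214, 1255 and 1225 in R98S and 835, 870 and 893 in WT, without overlap (log2 0.51, adjusted p = 0.120, limma). Its RPF was 372, 353 and 329 against 193, 245 and 252 (log2 0.62, adjusted p = 0.101, limma), just beyond the threshold. The gene lies on chromosome 4, where all tested genes had a median difference of 0.18 in mRNA and 0.21 in RPF. With chromosome medians removed *Mrpl50* was at 0.39 in mRNA and 0.41 in RPF (adjusted p = 0.205 and 0.243, limma). *Zfp189*, which starts 83 bases away on the opposite strand, had differences of 0.61 in mRNA and 0.63 in RPF, with adjusted p = 0.161 and 0.349. The stretch between them is shown for the same reason.
Mrpl50 to Zfp189, chr4:49521094-49521175, minus strand: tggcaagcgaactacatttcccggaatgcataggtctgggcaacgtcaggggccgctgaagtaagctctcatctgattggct

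**Figure D5:**
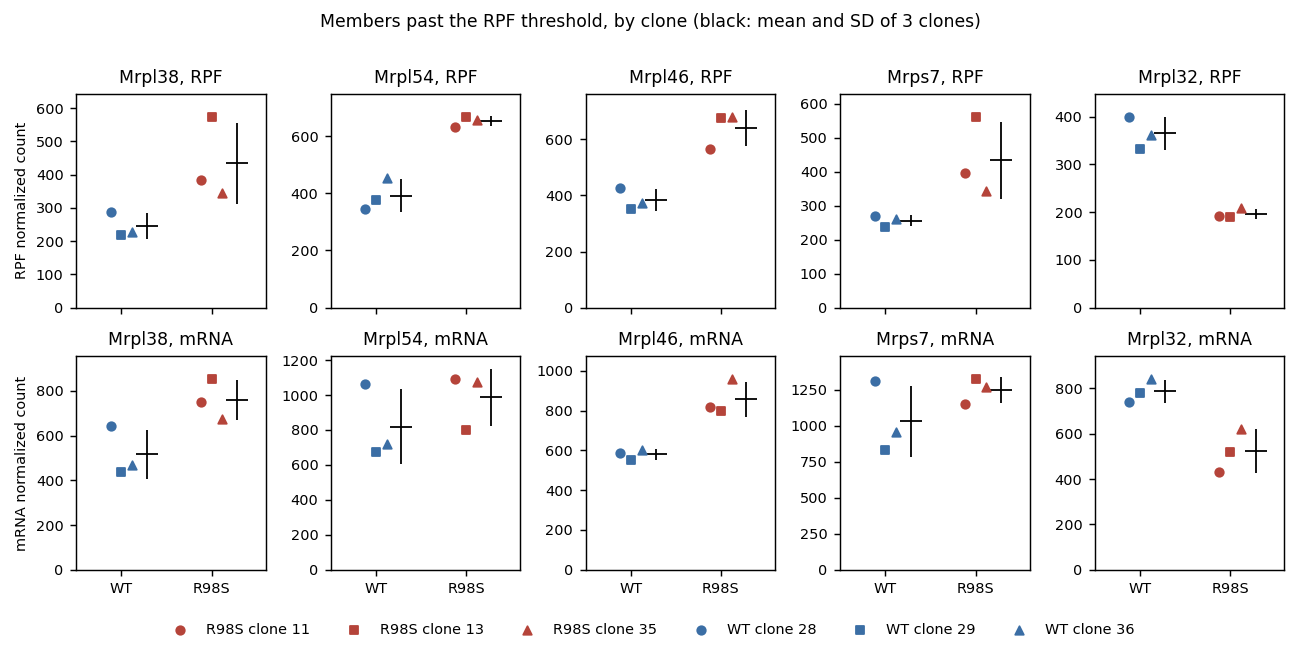
RPF (top) and mRNA (bottom) normalized counts by clone for the 5 members past the RPF threshold, with the mean and SD of 3 clones in black and an axis from 0. In RPF the R98S and WT clones do not overlap in any of the 5, and R98S clone 13 (red square) is the highest for *Mrpl38* (573) and *Mrps7* (561).

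The stalk and its base, the part of the large subunit that loads elongation factors, had the highest RPF median of the structural groups, 0.62, with all 5 genes above 0 and 1 of 5 called (*Mrpl54*). *Mrpl10*, the protein that tethers the stalk, measured 322, 528 and 329 RPF in R98S and 259, 242 and 219 in WT (log2 0.67, adjusted p = 0.126, limma). *Mrpl12*, the stalk itself, measured 807, 1192 and 825 against 703, 491 and 626 (log2 0.62, adjusted p = 0.133). R98S clone 13 was again the highest for both, and both lie on chromosome 11. With chromosome medians removed the differences were 0.53 for *Mrpl10* and 0.48 for *Mrpl12* (adjusted p = 0.156 and 0.198, limma). *Mrpl11* and *Mrpl53* were closer to 0, at 0.20 and 0.01. Over all tested genes 7.76% were called in RPF. The central protuberance had 2 of 7 called and a median of 0.12, and the exit of the polypeptide tunnel 0 of 8 called and a median of 0.17. By subunit the RPF median was 0.25 in the large and 0.14 in the small, with 3 higher and 1 lower of 49 against 1 higher of 26. By origin it was 0.22 for the large subunit proteins with bacterial relatives, 0.27 for the mitochondrial ones, 0.25 for the small subunit proteins with bacterial relatives and 0.10 for the mitochondrial ones. None of these groups was tested against another.

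Among the other members, the next largest RPF differences were *Mrpl37* (0.66) and *Mrpl57* (0.54), with adjusted p = 0.172 and 0.250 (limma). With chromosome medians removed they were 0.45 and 0.38 (adjusted p = 0.344 and 0.392, limma). *Mrpl16*, the mitochondrial relative of RPL10 itself, measured 1086, 907 and 1231 RPF in R98S and 1120, 617 and 1016 in WT. The groups overlapped in RPF (log2 0.26, adjusted p = 0.578), and its differences were 0.17 in mRNA and 0.09 in TE. *Mrps12*, a protein of the decoding centre, was at 0.44 in RPF (adjusted p = 0.295) and 0.00 in mRNA. *Mrps18a* and *Mrps30* were at 0.40 and 0.28 in RPF. *Mrps2*, another gene named in the study's supplement, was at 0.19 in RPF and 0.03 in mRNA. The lowest RPF differences after *Mrpl32* were *Mrps21* (-0.64, adjusted p = 0.180), *Mrps6* (-0.33), *Mrpl24* (-0.24) and *Mrpl51* (-0.19), none of which passed. *Mrps21* lies on chromosome 3, as does *Mrpl24*, and the 5 members there had a median of -0.03 beside a median of -0.31 for all chromosome 3 genes tested in RPF.

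In mRNA 0 of 75 tested members were called by limma, where 6.94% of 11344 tested genes were. At an unadjusted p under 0.05 there were 4 members, against 17.9% of genes, and for 10 of 75 (13.3%) every R98S clone was above every WT clone, against 11.9% of genes. Still 56 of 75 (74.7%) were above 0, against 51.4% of tested genes. edgeR on the recovered reads also called 0 (4 at an unadjusted p under 0.05), and DESeq2 called 3: *Mrpl46* and *Mrpl50* higher and *Mrpl32* lower. The largest differences after *Mrpl38*, *Mrpl46* and *Mrpl50* were 0.40 for *Mrps11* and 0.39 for *Mrpl23*, a protein at the tunnel exit. The lowest mRNA differences after *Mrpl32* were *Mrpl9* (-0.45), *Mrps6* (-0.41), *Mrpl14* (-0.37) and *Mrps21* (-0.30). For all 4 the mRNA of WT clone 28 was the highest of the 6 clones, at 1982 for *Mrpl9*, 285 for *Mrps6*, 701 for *Mrpl14* and 921 for *Mrps21*. *Mrpl9* and *Mrps21* lie on chromosome 3, where all genes had an mRNA median of -0.29, and with chromosome medians removed their differences were -0.18 and -0.04. Over the members mRNA and RPF differences went together (Spearman rho 0.54, Pearson r 0.67, n = 75 genes from the same clones), beside 0.67 and 0.82 over all 9501 genes tested in both.

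In TE 0 of 75 tested members were called by limma, where 0.0221% of 9043 genes were (2 genes), and edgeR and DESeq2 also called 0. At an unadjusted p under 0.05 there were 5 members (6.67%), against 7.85% of genes, and 2 by DESeq2 and 1 by edgeR. Nevertheless 57 of 75 members (76%) were above 0, against 49.8% of genes, and for 11 (14.7%) every R98S clone was above every WT clone, against 7.45%. Over all tested genes the TE difference was higher in genes with shorter coding sequences (Spearman rho -0.26, 8788 genes), with -0.10 among the 75 members. The mRNA difference rose with coding length, at 0.35 among the 75 members and 0.11 over 10394 genes. The members are short, but the part of length in their TE was not tested. *Mrpl12* had the largest difference, at 0.598, 0.794 and 0.555 RPF per mRNA count in R98S clones 11, 13 and 35 and 0.326, 0.434 and 0.448 in WT clones 28, 29 and 36 (log2 0.68, SE 0.216, adjusted p = 0.629, limma). The groups did not overlap, and its mRNA difference was -0.06. *Mrpl57* followed, at 0.733, 0.904 and 0.583 against 0.374, 0.467 and 0.562 (log2 0.66), then *Mrps24* (0.53), *Mrpl54* (0.46) and *Mrpl10* (0.45). WT clone 28, with its high mRNA values, had the lowest TE of the 6 clones for *Mrpl12*, *Mrpl57*, *Mrps24* and *Mrpl54*. The lowest TE differences were *Mrps31* (-0.49), *Mrps21* (-0.34), *Mrpl32* (-0.29), *Mrpl51* (-0.27) and *Mrps27*, a protein with RNA-binding repeats (-0.22), all at adjusted p of 0.629 or more. Cytosolic ribosomal proteins had a TE median of 0.11 with 51 of 82 above 0.

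Other genes of mitochondrial translation gave 1 call in all, in mRNA, where 6.94% of all tested genes were called in mRNA and 7.76% in RPF. Subunits of the mitoribosome without an *Mrp* symbol (6 measured, such as *Dap3*) had 0 called in mRNA, RPF and TE, with an RPF median of 0.16. Translation factors of the organelle (12, such as *Tufm* and *Gfm1*) had 0 called and an RPF median of 0.03. Among the assembly factors 1 of 25 was called in mRNA: *Fastkd2*, an RNA-binding protein of mitochondrial RNA granules, at 818, 833 and 631 in R98S and 516, 376 and 494 in WT (log2 0.72, adjusted p = 0.0998, limma). The rRNA methyltransferase *Nsun4* lay just outside at 0.72 (adjusted p = 0.1005). In RPF 0 of 23 assembly factors were called, with a median of 0.22. Genes of mitochondrial transcription and RNA stability (8) had 0 called. Of the products of the mitochondrial genome 11 were tested in mRNA, with 0 called, 6 above 0 and a median of 0.07. That median includes genes near the floor, such as *mt-Co3* at 2.46 to 12.4 normalized counts and *mt-Atp6* at 13.3 to 43.0. *mt-Co1*, at 117675 to 213614, was lower in every R98S clone (log2 -0.45, adjusted p = 0.367, limma). The products of the mitochondrial genome were not tested in RPF here.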

How the data were processed

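The authors sequenced footprints (3 technical replicates merged per clone) and poly(A) mRNA, aligned reads to GRCm38/mm10 with TopHat2 2.0.11, kept a mapping quality of at least 10, and counted footprints in coding sequence without its first 15 and last 5 codons and mRNA reads in exons. They deposited normalized counts (unit: signal), counts divided by DESeq2 size factors, set separately for each assay. Whole reads were recovered for 100% of values (within 0.001).

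Values were tested with limma 3.58.1 (R 4.3.3; trend) on log2(value + 1): genes with a mean of at least 10, or for TE at least 10 in each of the 12 libraries, threshold 0.1. On recovered reads edgeR 4.0.16 called 365 genes higher and 440 lower in mRNA, 336 and 472 in RPF, and 0 and 2 in TE, and DESeq2 1.42.0 called 578 and 705, 460 and 627, and 0 and 6. On simulated data in which 200 genes differed by a log2 value of 1.5, limma recovered 173 (mRNA, 11344 genes), 190 (RPF, 9580 genes) and 164 (TE, 9043 genes), with 14, 16 and 19 false calls. The simulated size is larger than any difference of the members. Within an assay all genes were given the same dispersion, and mRNA and RPF were drawn independently. These shares therefore do not give the power for the members or for TE paired within clones. Summed levels were tested with an exact permutation test. The mRNA and RPF libraries of a clone carry the same clone number, and their deviations from the group means correlated at 0.218 to 0.681, so TE was fitted within clones. Clones are separate cell lines of 1 parental line. p-values measure the spread between them.

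Members, lists and tests were chosen with earlier results of these data known. Named genes were those past the threshold in any test, the 5 largest rises and falls in each measure, the 5 highest and lowest by RPF per length, stalk genes, *Mrpl16*, *Mrps12*, *Mrps18a*, *Mrps30*, genes named in the study's supplement (*Mrpl32*, *Mrpl46*, *Mrpl50*, *Mrps2*), and members paired with or overlapping other genes. Their neighbours and the members whose promoter letters are shown were chosen after their values were seen. Alternatives changed the pseudocount, filter, tool, chromosome correction, pairing and clones. Gene positions come from GENCODE (GRCm38).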

Additional observations from a re-analysis of the deposited data

How the results depend on the processing

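For 58 named values 624 alternatives were computed: 582 kept direction and side of the threshold, 11 passed it newly, 19 lost it and 12 changed sign. The median differences of the members kept their direction under every alternative run (leaving out 1 clone: 0.01 to 0.20 in mRNA, 0.16 to 0.26 in RPF, 0.05 to 0.19 in TE). RPF calls did not: 8 members by DESeq2 (7 higher, adding *Mrpl10*, *Mrpl12* and *Mrpl50*), 2 with chromosome medians removed, 3 without the members of chromosome 11 (an alternative chosen after seeing the data), and 0 to 10 leaving out 1 clone. mRNA calls were 3 by DESeq2 and 0 to 1 leaving out 1 clone. The summed mRNA difference ran from -0.014 (without WT clone 29) to 0.19. For the other mitochondrial translation genes mRNA calls, 1 in the report, were 3 by DESeq2, 2 by edgeR, 2 at a pseudocount of 0.5, 0 at 5, 0 without a filter, 0 with chromosome medians removed and 0 to 3 leaving out 1 clone; RPF calls were 1 by DESeq2 and 0 to 3 leaving out 1 clone. Signs changed with chromosome medians removed for *Mrps2* mRNA (-0.12), *Mrpl24* RPF (0.0022) and *Mrpl11* TE (-0.033). Leaving out 1 clone they changed in mRNA for *Mrpl12* (-0.27 to 0.20), *Mrpl16* (-0.046 to 0.33), *Mrps12* (-0.23 to 0.33), *Mrps18a* (-0.10 to 0.10) and *Mrps2* (-0.065 to 0.13), in RPF for *Mrpl16* (-0.000405 to 0.43) and *Mrps2* (-0.000939 to 0.29), and in TE for *Mrpl11* (-0.12 to 0.17) and *Mrps30* (-0.085 to 0.19). The cause was not tested. Without the pairing of libraries by clone (no replicate block) TE calls were 0 members and 3 genes. DESeq2 with a replicate block, added after seeing the data, called 0 members, but among all genes 22 higher and 39 lower, with a member median of 0.11. Over all genes DESeq2 called 578 higher and 705 lower in mRNA, against 344 and 443 in the report's test, and in TE 0 and 6, with 0 and 4 without a filter, against 0 and 2. With 3 clones a group and medians of the standard error of 0.202, 0.209 and 0.209 for mRNA, RPF and TE, single differences as small as the members' medians were not detectable. Of the 6 mRNA libraries that of WT clone 28 limits mRNA and TE most, with 1 read worth 2.69 normalized counts.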
